A study of Mus musculus with 36 samples.

Results

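DNase I hypersensitive sites (DHS) are stretches of open chromatin that the enzyme DNase I cuts readily. The narrow DHS lying between genes but not far from them were taken from a DNase-seq table of mouse pre-B cells, in which the read density of 52788 DHS was measured in 36 libraries. A DHS was a member when it was at most 200 bp wide, overlapped no annotated gene body, and had its nearest transcription start site (TSS) between 1 kb and 100 kb away (GENCODE vM21 basic annotation, mm10). The rule gave 8666 members, 16.4% of all DHS, and used only position and width, not the measured values. For comparison, 15.3% of DHS were broad (over 200 bp) under the same distance limits, 22.3% were narrow DHS in a gene body, and 19.2% were broad DHS within 1 kb of a TSS. A DHS is called here by its nearest gene in that annotation, which does not say that it acts on that gene.

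The cells were B3, a mouse pre-B lymphocyte line kept as 2 retrovirally transduced populations. The Ikaros line carried a vector for a fusion of the transcription factor Ikaros with a hormone-binding domain (ERt2), so that 4-hydroxytamoxifen (4-OHT) moves the protein into the nucleus, and the control line carried a vector without Ikaros; both were sorted on GFP from the vector, and neither was a single clone. Each line was sampled at 0, 2, 6, 12, 18 and 24 h with 3 replicates, numbered 4, 5 and 6, which the labels assign to batches 11, 12 and 13. The labels give 0.5 µM 4-OHT for every library, whereas by the study's methods the cells for 0 h were untreated and gathered separately. The labels also put the 0 h libraries in the same batches as the later times, and which holds is not settled. The line comparison at 0 h may therefore differ from the later ones in how its cells were obtained. Values are log2 normalised read densities after noise correction by the authors. The study states a minimum sequencing depth, and the depth of each library is unknown.

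Distal DHS are typical of enhancers, which bind lineage factors such as Ikaros, EBF1, E proteins and ETS factors in B-cell progenitors, and of insulators, which bind the zinc finger protein CTCF. Transfer RNA (tRNA) genes, transcribed by RNA polymerase III from promoter elements inside the gene, are short open sites as well. Ikaros binds DNA through zinc fingers that recognise the letters GGGAA, and its entry into the nucleus of pre-B cells is known to stop growth and start differentiation.

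Sequences of selected members are printed from the GRCm38.p6 reference (the assembly also called mm10, RefSeq copy), plus strand, 5′ to 3′. The following 6 show members with the Ikaros core GGGAA or its reverse complement TTCCC in capitals. H2-D1, Mir22hg and Mslnl name members among the 5 highest levels of all, Mlec and Gm19111 name members with large line differences at 24 h, and Crisp1 names the member past the threshold at the most times, which holds no core.
H2-D1 member, chr17:35259173-35259351: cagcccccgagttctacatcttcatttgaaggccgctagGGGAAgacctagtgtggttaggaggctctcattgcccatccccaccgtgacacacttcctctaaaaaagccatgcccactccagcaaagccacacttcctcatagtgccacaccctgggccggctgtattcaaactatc
Mir22hg member, chr11:75460121-75460283: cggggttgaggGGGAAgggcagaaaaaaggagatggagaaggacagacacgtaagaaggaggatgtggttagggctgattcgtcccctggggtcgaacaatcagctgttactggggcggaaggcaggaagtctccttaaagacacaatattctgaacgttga
Mslnl member, chr17:25732204-25732340: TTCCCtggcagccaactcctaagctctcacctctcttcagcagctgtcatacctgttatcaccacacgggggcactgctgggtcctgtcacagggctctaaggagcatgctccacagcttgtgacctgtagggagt
Mlec member, chr5:115166019-115166149: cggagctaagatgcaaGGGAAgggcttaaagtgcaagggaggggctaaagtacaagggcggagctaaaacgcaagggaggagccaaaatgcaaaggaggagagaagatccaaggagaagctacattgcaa
Gm19111 member, chr15:27316447-27316587: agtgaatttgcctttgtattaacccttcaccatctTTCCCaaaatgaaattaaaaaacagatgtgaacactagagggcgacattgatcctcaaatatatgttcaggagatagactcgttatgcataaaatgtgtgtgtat
Crisp1 member, chr17:40342575-40342716: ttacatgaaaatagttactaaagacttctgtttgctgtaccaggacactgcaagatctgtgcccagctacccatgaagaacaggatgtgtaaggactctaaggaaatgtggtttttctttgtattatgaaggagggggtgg
The next 6 are shown for the letters of a CTCF core, spelled CC, 3 free letters, AG, 2 free letters and GGC, on either strand, in capitals. Gm28641 and Gm13518 name members higher in the Ikaros line at 24 h, Snrpc and Foxo1 name members lower at 0 h, and Ptma and Stk11 name 2 of the 5 highest levels.
Gm28641 member, chr2:7550761-7550892: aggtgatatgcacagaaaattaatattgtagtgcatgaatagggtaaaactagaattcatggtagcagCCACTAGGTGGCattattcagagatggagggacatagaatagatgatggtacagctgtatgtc
Gm13518 member, chr2:56109630-56109766: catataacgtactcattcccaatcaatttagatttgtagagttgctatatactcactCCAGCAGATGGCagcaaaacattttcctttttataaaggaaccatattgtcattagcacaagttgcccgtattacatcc
Snrpc member, chr17:27830477-27830615: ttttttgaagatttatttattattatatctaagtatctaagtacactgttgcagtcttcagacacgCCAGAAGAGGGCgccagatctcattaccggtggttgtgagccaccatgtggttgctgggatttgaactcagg
Foxo1 member, chr3:52262521-52262660: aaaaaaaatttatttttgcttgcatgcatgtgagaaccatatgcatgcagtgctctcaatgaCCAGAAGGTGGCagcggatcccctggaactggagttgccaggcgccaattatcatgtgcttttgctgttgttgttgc
Ptma member, chr1:86501702-86501878: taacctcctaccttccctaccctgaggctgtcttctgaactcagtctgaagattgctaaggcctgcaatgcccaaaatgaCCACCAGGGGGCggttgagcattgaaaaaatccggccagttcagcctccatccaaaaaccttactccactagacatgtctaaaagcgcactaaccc
Stk11 member, chr10:80114673-80114759: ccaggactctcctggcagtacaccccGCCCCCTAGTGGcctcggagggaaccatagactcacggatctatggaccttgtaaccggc
The last 3 hold a tRNA gene of the RefSeq annotation, in capitals: tRNA-Thr in the Gpx5 member, part of tRNA-Leu in the Trim27 member and tRNA-Arg in the AC154766.4 member. They are the 3 members at tRNA genes with the largest negative line differences at 24 h.
Gpx5 member, chr13:21275939-21276077: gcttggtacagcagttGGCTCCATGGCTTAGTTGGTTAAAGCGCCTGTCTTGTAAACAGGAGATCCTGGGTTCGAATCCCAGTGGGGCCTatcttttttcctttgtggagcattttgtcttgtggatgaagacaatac
Trim27 member, chr13:21172798-21172928: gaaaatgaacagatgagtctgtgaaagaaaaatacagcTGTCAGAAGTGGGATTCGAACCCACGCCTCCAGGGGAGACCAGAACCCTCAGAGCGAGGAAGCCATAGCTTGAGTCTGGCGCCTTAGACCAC
AC154766.4 member, chr17:23548766-23548955: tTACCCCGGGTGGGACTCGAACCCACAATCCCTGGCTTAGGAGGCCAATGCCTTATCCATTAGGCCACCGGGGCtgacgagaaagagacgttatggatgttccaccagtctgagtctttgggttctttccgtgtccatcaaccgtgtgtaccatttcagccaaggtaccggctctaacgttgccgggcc

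The members had a median width of 132 bp and 80.3% were between 120 and 150 bp wide. The median distance to the nearest TSS was 13289 bp. Of the members, 40.4% lay 1 to 10 kb, 49.8% lay 10 to 50 kb and 9.75% lay over 50 kb from it, and 62.3% were upstream of it. The nearest gene was protein coding for 41.9%, a processed pseudogene for 20.0% and a lincRNA for 16.3%. The 6469 nearest genes had 1 member each in most cases, 1540 had at least 2 and 48 had at least 5, led by Gm43674 with 9. The next DHS along the chromosome was 6777 bp away at the median, and it was another member for 35.6%, a broad intergenic DHS for 34.7% and a broad DHS within 1 kb of a TSS for 12.9%. Members numbered 3.18 per Mb over all chromosomes, 5.10 on chromosome 11 and 0.959 on chromosome X. At the limits of the rule, the 78 members within 10 bp of the width limit had a median level of 4.13 and the 60 DHS up to 10 bp wider than it 3.96. The 65 members within 100 bp beyond the 1 kb limit had a median level of 4.25, and the 70 narrow intergenic DHS up to 100 bp short of it had 4.10. At the far limit the values were 3.65 for the 78 members in the last 10 kb and 3.67 for the 57 DHS in the next 10 kb.

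The sequences of members differed from the same windows moved by 5 kb to either side more in some motifs than in others. The median GC content was 48.9%, against 44.8% in the moved windows and 46.6% in broad intergenic DHS. Repeat-masked bases made up a median of 3.69% of a member and 27.3% of a moved window, and 47.5% of members held none; 928 members (10.7%) were over 50% masked, among them the Snrpc, Foxo1 and H2-D1 members shown above. Only uniquely placed reads were kept by the authors.

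The letters of CTCF stood furthest from the moved windows. With the spelling given above, both strands, a match was found in 2248 members (25.9%), in 22.7% of the other narrow DHS and in 2.06% of the moved windows; this spelling was added after the sequences had been read. The first spelling, CCAGNNGGC, gave 6.67%, 7.14% and 1.94%. The EBF1 letters CCCNNGGG were in 9.17% of members against 2.86% of moved windows, the ETS core GGAAGT in 17.5% against 8.35%, the E-box CAGCTG in 11.9% against 6.14%, and the RUNX letters TGTGGT in 19.5% against 11.0%. The PU.1-type letters GAGGAA (19.6% against 12.7%), the AP-1 letters TGANTCA (6.24% against 4.00%) and the E-box CAGGTG (12.6% against 9.85%) differed less. The Ikaros core GGGAA was in 35.4% of members, 35.8% of other narrow DHS and 31.3% of moved windows, and the longer TGGGAA, which contains it, in 12.7%, 12.0% and 12.5%. GAGGAA and GGAAGT share letters and can overlap. The FOXO letters GTAAACA (1.66% against 1.89%), and the IRF letters GAAACTGA (1.23% against 0.865%) were near the moved windows, and CCAAT was in 15.5% of members and in more of the moved windows. The SP/KLF letters GGGCGG, common in promoters, were in 3.97% of members and in 24.4% of narrow DHS within 1 kb of a TSS. Moved windows are also less GC-rich, and no motif was tested against base composition.

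**Figure D1:**
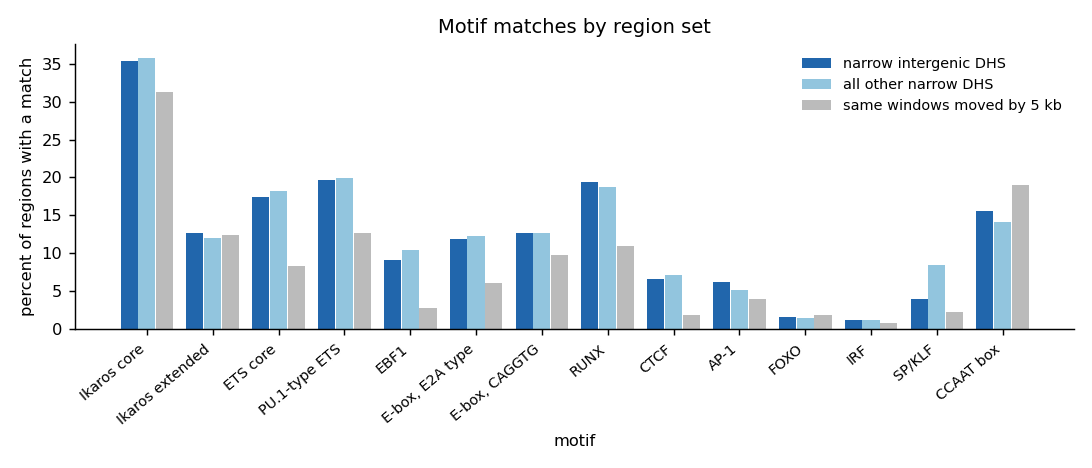
Percent of regions with at least 1 match to each of 14 motifs (y axis) in the 8666 members, in all other narrow DHS and in the member windows moved by 5 kb. The pairs of blue bars lie close together except for SP/KLF, while the ETS, EBF1, RUNX and CTCF bars of the members stand above the grey bars and the Ikaros bars do not stand far above them.

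The median level of a member over all libraries was 3.79 (range of means 1.76 to 6.56). The highest level, 6.56, was that of the H2-D1 member, which lies 3379 bp upstream of a class I histocompatibility gene. At 24 h its values were 6.80, 6.36 and 6.31 in Ikaros replicates 4, 5 and 6 and 6.44, 6.74 and 6.76 in the control. The ranges overlapped, with a line difference of −0.16 ± 0.20 (SE). The Ptma member (level 6.39) lies 24848 bp upstream of the gene for prothymosin alpha, and the Mslnl (6.35), Stk11 (6.29) and Mir22hg (6.24) members followed. The spread between replicates was wide: the median SD over the 12 groups was 0.500 for members, 0.496 for narrow DHS in a gene body, 0.285 for broad intergenic DHS and 0.237 for broad DHS within 1 kb of a TSS. Within the members it was larger in the control line, with medians of 0.390 to 0.572 over its 6 groups, than in the Ikaros line from 2 h on, with medians of 0.268 to 0.301; at 0 h the Ikaros median was 0.513. The lowest levels were those of the Gm15259 member on chromosome X (1.76), the Gm27663 member on chromosome Y (2.03) and the Gm2791 member (2.22).

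The Ikaros and control lines were compared at each time to ask which sites differ once Ikaros enters the nucleus. Differences were tested with limma on all 52788 DHS, with Benjamini-Hochberg adjusted p-values and a threshold of 0.05, and every count below is read against the share of all DHS past that threshold. In this fit the largest number of member calls was at 0 h, before induction. There 592 members passed, 6.83% against 12.9% of all DHS. Of these, 519 (5.99% against 5.04%) were lower and 73 (0.842% against 7.81%) higher in the Ikaros line. With trends with level, GC and width removed the split was 90 lower and 69 higher, and with median centring 354 lower and 113 higher. The 3 Ikaros values lay wholly apart from the 3 control values in 15.2% of members and 23.6% of all DHS. Without Control 0h replicate 6 the 592 fell to 196 and without Control 0h replicate 4 to 388, and without replicate 4 or replicate 6 of both lines to 183 or 246. With library weights 0 h no longer had the most member calls, with 274 against 527 at 24 h. Fitting only the groups compared gave 0 at 0 h and 170 at 24 h.

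Few of the members called lower at 0 h were called at later times, when few members were called at all. Their median difference was −1.24 at 0 h, where they were chosen, and then −0.07, −0.40, 0.30, −0.17 and 0.13 over the 5 later times. They were chosen on their 0 h values, so no change is read from these medians. At 24 h 3 of the 519 were called lower and 3 higher. Among all members the shares at 24 h were 0.335% lower and 0.542% higher, and among all DHS 0.517% and 0.809%. CTCF letters were present in 228 of the 519 (43.9%), against 25.9% of all members, a spelling chosen after some of these sequences had been read. With the first spelling they were in 39 of the 519 (7.51%), against 6.67% of all members. Over the 2248 members with these letters the median difference at 0 h was −0.45, and over the 6418 without it was −0.16. At 2, 6, 12, 18 and 24 h the medians with the letters were 0.04, −0.17, 0.13, −0.04 and 0.10. Without them they were 0.09, 0.03, 0.21, 0.13 and 0.19. The letters were in 17.6% of members in the lowest quartile by level and in 31.6% in the highest. For the 519 members, the line and how the 0 h cells were obtained cannot be told apart.

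The Snrpc member lies 7535 bp upstream of the gene for a U1 snRNP protein and is wholly repeat-masked. At 0 h it read 1.00, 1.98 and 2.99 in the Ikaros line and 4.98, 3.74 and 5.32 in the control. All 3 Ikaros values were below all control values, by 2.69 ± 0.51 (limma adjusted p = 0.00145), and at 24 h, with 4.50, 5.06 and 4.57 against 4.94, 5.23 and 4.11, the ranges overlapped. The Foxo1 member, 5676 bp upstream of the gene for a forkhead factor of B-cell development, read 3.79, 4.42 and 4.24 against 5.26, 4.42 and 5.70, a difference of −0.98 ± 0.29 (limma adjusted p = 0.0268; 0.113 with trends removed). Replicate 5 of both lines had nearly the same value, and the call was also lost with library weights.

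Among called members whose lines lay apart at 0 h, the 2 with the largest positive differences each had 1 control library near zero. The Sertad1 member read 5.33, 5.58 and 5.17 in the Ikaros line and 4.35, 4.27 and 0.46 in the control, a difference of 2.33 ± 0.56. The Hoxb7 member, 1057 bp upstream of a homeobox gene, read 4.46, 5.10 and 4.41 against 3.44, 0.26 and 3.23, a difference of 2.35 ± 0.78. In each, 1 control library lay more than 2 log2 units under the other control values, and the calls were lost with trends removed (limma adjusted p = 0.11 and 0.155). The Socs3 member, 14913 bp downstream of the start of a cytokine signalling inhibitor gene, was higher with less scatter in the Ikaros line: 4.66, 4.23 and 4.29 against 3.05, 3.54 and 1.47 (1.71 ± 0.44, limma adjusted p = 0.0109). The Socs3 call was lost without Control 0h replicate 6, without replicate 4 or 6 of both lines, and when only the groups compared were fitted.

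From 2 h to 18 h few members passed. The 2 h comparison had 24 (0.277% against 0.195% of all DHS). The 6 h comparison had 30 (0.346% against 0.578%), the 12 h comparison 90 (1.04% against 1.31%) and the 18 h comparison 61 (0.704% against 0.699%). At 12 h 66 were higher (0.762% against 0.887%) and 24 lower (0.277% against 0.428%), and at 18 h 40 were higher (0.462% against 0.5%) and 21 lower (0.242% against 0.199%). With trends with level, GC and width removed the side with more calls turned, to 6 higher and 8 lower at 12 h and 6 higher and 13 lower at 18 h. A fit that blocked on replicate number, since it is a batch, passed 13 at 2 h. Single libraries moved these counts. At 2 h they became 1, 3 and 3 without Ikaros 2h replicate 4, 5 and 6, and 135 and 90 without Control 2h replicate 5 and 6. At 6 h they became 14, 11 and 9 without Ikaros 6h replicate 4, 5 and 6, and 79 and 49 without Control 6h replicate 4 and 6. At 12 h they became 13, 24 and 3 without Ikaros 12h replicate 4, 5 and 6, and 49 without Control 12h replicate 5. At 18 h they became 8, 12 and 10 without Ikaros 18h replicate 4, 5 and 6, and 34 and 35 without Control 18h replicate 4 and 6.

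The largest differences at these times, among called members whose lines lay apart, often came from control values near zero at a single time. The Gm14546 member at 6 h read 3.88, 3.97 and 3.89 in the Ikaros line and 2.55, 0.28 and 0.22 in the control, a difference of 2.90 ± 0.49 (limma adjusted p = 0.00375). At 12 h its control values were 4.00, 3.16 and 3.27. The Eif5al3-ps member at 2 h read 4.29, 3.19 and 3.78 against 0.50, 0.11 and 2.21 (2.81 ± 0.49, limma adjusted p = 0.0098), and its control values at 6 h were 3.61, 3.15 and 3.64. The Hnf4g member at 12 h read 3.92, 3.04 and 3.25 against 0.81, 0.76 and 0.77, and at 18 h 3.29, 3.27 and 3.61 against 4.08, 3.99 and 4.35. In all 3 members the groups lay apart at the named time and the control line was back above 3 at the next. The Gm12159 member behaved otherwise: it read 4.55, 3.82 and 3.83 against 2.24, −0.26 and 1.62 at 6 h (2.87 ± 0.49, limma adjusted p = 0.0043) and was called again at 18 h, with 4.48, 3.98 and 4.03 against 2.12, 2.75 and 1.35. The Ikaros values were the higher ones at both times. Other large differences at 1 time were those of the 1700049E22Rik (2.48) and Fam49a (−1.26) members at 2 h, Hyi (−1.60) at 6 h, n-R5s219 (2.77) at 12 h, and 1700034J04Rik (2.39), Gm43849 (2.33) and Tipin (−1.52) at 18 h. The first 2 lost their calls with the replicate block, with adjusted p-values of 0.0686 and 0.0541 (limma). With trends removed the calls at 1700049E22Rik, Hyi, n-R5s219, Hnf4g, 1700034J04Rik and Gm43849 were lost (limma adjusted p-values of 0.0562 to 0.288). Quantile normalization lost those at 1700049E22Rik, Fam49a, Eif5al3-ps, Hnf4g and Tipin (limma adjusted p-values of 0.057 to 0.4995). The 6 h calls at Gm14546 and Gm12159 were kept in both of these fits.

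At 24 h 76 members passed (0.877% against 1.33% of all DHS), 47 higher (0.542% against 0.809%) and 29 lower (0.335% against 0.517%) in the Ikaros line. The 3 against 3 values lay apart in 23.3% of members and 25.5% of all DHS. The 76 became 33, 35 and 23 without Control 24h replicate 4, 5 and 6, and 9, 16 and 32 without Ikaros 24h replicate 4, 5 and 6. With trends with level, GC and width removed 23 passed, 7 higher and 16 lower, and with median centring 28 higher and 40 lower, so the side with more calls turned under both.

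**Figure D2:**
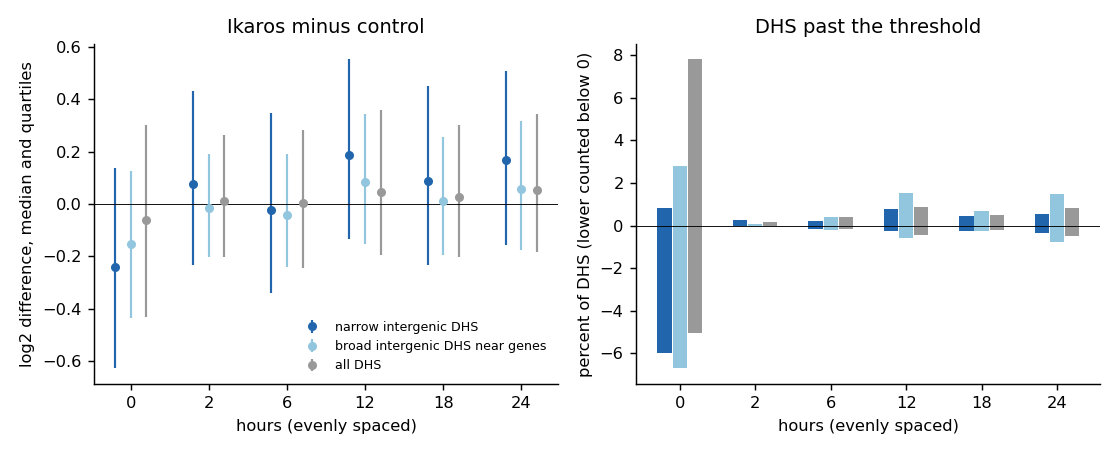
Left, median and quartiles of the log2 difference Ikaros minus control (y axis) at each time for members, broad intergenic DHS near genes and all DHS; right, percent of each set past the threshold, with lower DHS below 0. The member medians run from −0.24 at 0 h to 0.17 at 24 h on the deposited scale, and the 0 h bars are the tallest. With trends removed the medians are −0.01 at both times, but that step fits width and so by itself brings them near 0.

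The 5 members with the largest positive difference at 24 h, among those called with lines apart, were low sites with GC content of 35.0% to 40.1%. The Gm13518 member, 69778 bp downstream of the start of a pseudogene, read 4.53, 3.94 and 3.75 in the Ikaros line and 1.34, 1.99 and 2.35 in the control at 24 h. The lines were apart by 2.18 ± 0.49 (limma adjusted p = 0.0221), and it was also called at 12 h (2.28). The Gm44526 member, 81.7% repeat-masked, read 4.05, 3.97 and 4.14 against 1.96, 2.22 and 2.00 (1.99 ± 0.40, limma adjusted p = 0.0111), with replicates close together in both lines, and was called at 6, 12, 18 and 24 h. The Gm28641 (2.00), Gm19111 (1.92) and Slc27a6 (2.08) members were called at 12 and 24 h. Slc27a6 encodes a fatty acid transporter. With trends with level, GC and width removed none of these 5 passed at 24 h (limma adjusted p-values of 0.145 to 0.221).

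Among called members whose lines lay apart, the 5 with the largest negative difference were higher sites, with mean levels of 4.18 to 5.11. The Gpx5 member, which contains the tRNA-Thr gene printed above, read 4.63, 4.06 and 3.87 in the Ikaros line and 5.60, 5.70 and 5.90 in the control at 24 h. All control values were above all Ikaros values, the difference was −1.55 ± 0.23 (limma adjusted p = 0.000673; 1.23e-05 with trends removed), and at 0 h it was 0.37. The Mlec member, 7841 bp upstream of a gene for a sugar-binding protein of the endoplasmic reticulum, read 3.52, 4.32 and 3.92 against 5.09, 5.31 and 5.50 (−1.38 ± 0.23, limma adjusted p = 0.00262; 0.00267 with trends removed) and was called from 12 h on. Its sequence, printed above, holds an Ikaros core. The Gm5532 member read 2.87, 3.73 and 3.52 against 4.89, 5.14 and 4.27 (−1.40 ± 0.27, limma adjusted p = 0.00797) and was called at 6, 12, 18 and 24 h. The Stc2 (−1.40) and Gm34333 (−1.45) members, the first 1275 bp upstream of a gene for a secreted glycoprotein hormone, were also called at 12 h, and Stc2 at 18 h too. All 5 kept their 24 h calls with trends removed, and Gm34333 lost its 12 h call (limma adjusted p = 0.0595).

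**Figure D3:**
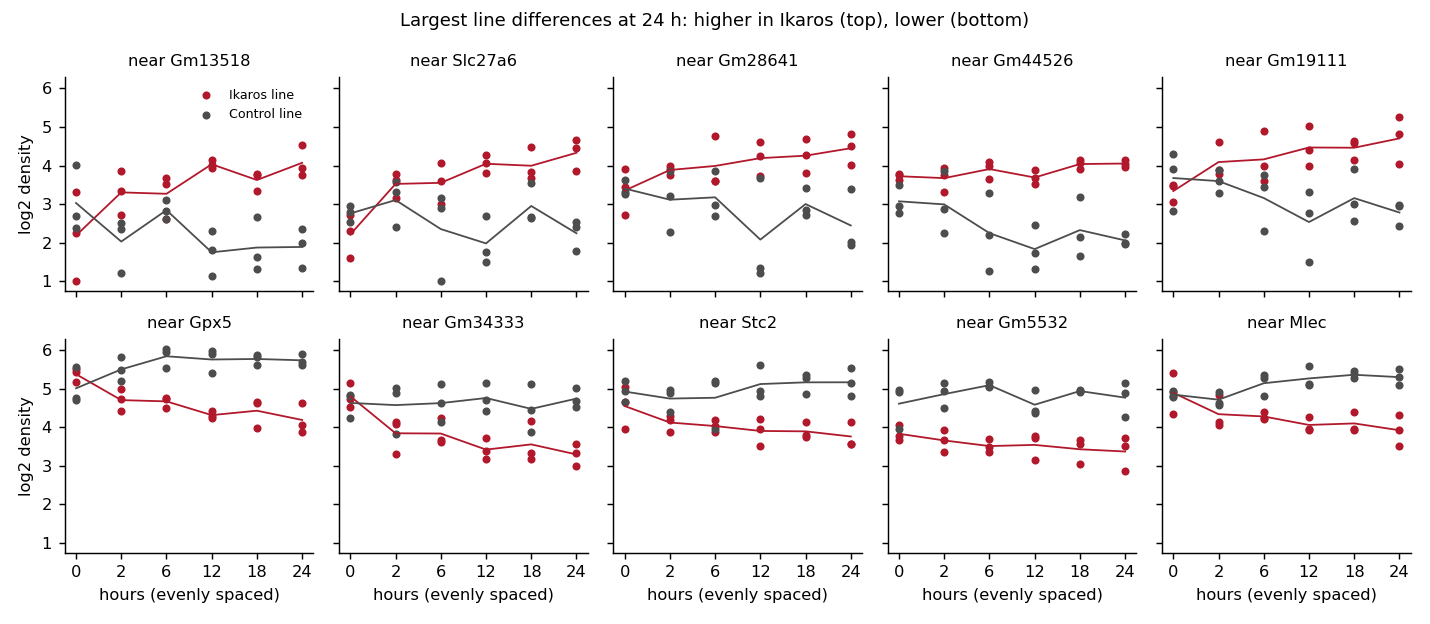
Log2 read density (y axis) in each library at each time for 10 members. They have the largest line differences of each sign at 24 h among called members whose lines lay apart. Points are libraries and lines join group means. By that choice the Ikaros values lie above the control values at 24 h in the top row, and the control values lie above in the bottom row.

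Over 2 to 24 h, 186 members were called at least once: 118 at 1 time, 50 at 2, 10 at 3, 7 at 4 and 1 at all 5. This was 2.15% of members against 2.46% of all DHS, of which 15 were called at all 5. The 1 member was the Crisp1 member, 23369 bp upstream of a gene for an epididymal secretory protein. It was lower in the Ikaros line at 0 h too. At 0 h it read 4.25, 3.83 and 4.26 in the Ikaros line and 5.39, 5.39 and 5.32 in the control, and at 24 h 3.75, 3.64 and 3.97 against 5.04, 5.05 and 5.35. The differences ran from −1.43 at 6 h to −1.03 at 12 h (SE 0.21), the groups lay apart at all 6 times, and the change of the difference from 0 h to 24 h was −0.11 ± 0.30. A difference already present at 0 h cannot be told apart from one between the 2 cell populations.

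Members that overlap a tRNA gene had negative median line differences from 2 h on, with few single calls. RefSeq places a tRNA gene, whole in 13 and in part in the others, at 38 members (0.438%), against 0.0959% of other narrow DHS, 0.717% of broad intergenic DHS and 0.278% of all DHS; the group was formed after the sequence of the Gpx5 member had been read. They lie on 11 chromosomes, with 12 on chromosome 13 and 10 on chromosome 11, often as neighbours, and carry 16 kinds of tRNA. At 0 h 15 of the 38 were below 0 in the line difference, with a median of 0.07. The 0 h median depended on scaling: −0.16 with 24 below 0 under quantile normalization, and 0.27 with 7 below 0 with trends removed. The median change from 0 h to 24 h was −0.56, and −0.27 and −0.77 in those 2 fits. From 2 h to 24 h the median was −0.41, −0.44, −0.48, −0.68 and −0.52, and 32, 35, 36, 34 and 38 of the 38 were below 0. Of the 38, 0, 2, 6, 7 and 7 were called lower (limma). At 24 h 7 of the 38 were called lower (18.4%, against 0.517% of all DHS) and 0 higher (limma). The 7 include the Gpx5 member, which led to the group, so this share is not independent of that choice. Among the other members in the top quartile by level, 0.937% were called lower. The count of 7 became 11 with library weights, a fit that called 136 of all members lower (29 in the fit reported). With quantile normalization the count was 3, and with trends removed 2. It was 1, 3 and 3 without Ikaros 24h replicate 4, 5 and 6. Omitting Control 24h replicate 6 gave 2, and the count was 1, 0 and 1 without replicate 4, 5 and 6 of both lines. Since the group was chosen with values known, its median carries no p.

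These sites were among the highest of the members, with a median level of 5.50, and members of high level tended to be lower in the Ikaros line. Within a library, the SD over all members was smaller in the Ikaros line from 2 h on. Its group means were 0.603 to 0.643 there and 0.866 to 1.03 in the control, while at 0 h they were 0.911 and 0.776. The part of this spread in the differences by level and at tRNA genes was not tested. The other members in the top quartile by level (n = 2134, median level 4.50) had a median difference of −0.09 at 24 h, with 59.6% below 0. At 0, 2, 6, 12 and 18 h their medians were −0.27, −0.09, −0.25, −0.06 and −0.16. The share below 0 was 74.1% at 6 h and 66.9% at 18 h. With trends with level, GC and width removed, the tRNA median at 24 h was −0.52 and 38 of 38 were below 0, and with quantile normalization it was −0.38 and 36 of 38. At 6 h the tRNA median with trends removed was −0.19, with 29 of 38 below 0. Leaving out 1 of the 6 libraries at 24 h gave −0.60 to −0.44. Over all DHS, 147 hold a tRNA gene, and 142 of them were below 0 at 24 h with a median of −0.44.

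In single libraries, the median of the 38 was 5.24, 5.18 and 4.93 in Ikaros replicates 4, 5 and 6 at 24 h and 5.64, 5.73 and 5.79 in the control. The 2 groups of libraries lay apart, with means of 5.12 ± 0.16 and 5.72 ± 0.08 (SD, n = 3). At 0 h they overlapped, with 5.56, 5.15 and 5.71 against 5.58, 5.46 and 5.29. The Trim27 member, at a tRNA-Leu gene, read 4.02, 4.65 and 4.56 against 5.76, 6.07 and 5.09 at 24 h (−1.23 ± 0.23, limma adjusted p = 0.00604). The AC154766.4 member, at tRNA-Arg, read 5.27, 5.51 and 5.84 against 6.40, 6.28 and 6.74 (−0.93 ± 0.18, limma adjusted p = 0.01). In both the control values lay above the Ikaros values. The correction by the authors lets groups borrow from each other, so the 5 times after 0 h are not independent readings.

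**Figure D4:**
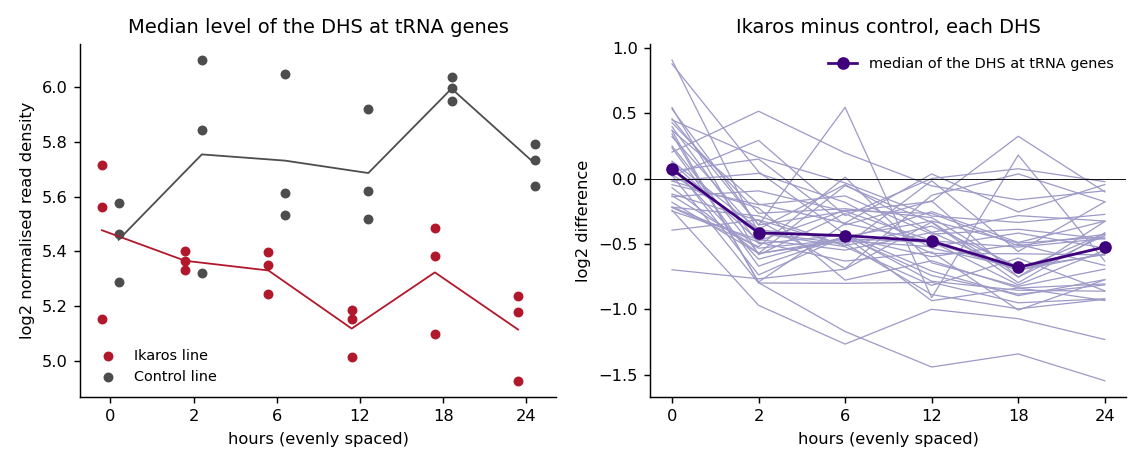
Left, median log2 read density of the 38 members at tRNA genes in each library, with lines through group means; right, the line difference of each of the 38 (thin lines) and their median. The medians of the lines overlap at 0 h, and at 24 h the 3 Ikaros medians (5.24, 5.18 and 4.93) lie below the 3 control medians, with 38 of 38 differences below 0.

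The difference between the lines changed from 0 h to 24 h in 354 members (4.08% against 6.26% of all DHS). It rose in 301 (3.47% against 2.85%) and fell in 53 (0.612% against 3.4%). With trends removed 6 rose and 15 fell, in a fit that takes out width, by which the members were chosen. Quantile normalization gave 126 rises and 28 falls. The 354 became 130 without Control 0h replicate 6, 139 and 225 without Control 24h replicate 4 and 6, and 123, 123 and 176 without Ikaros 24h replicate 4, 5 and 6. In 176 rises the Ikaros values at 24 h lay above all control values at 24 h and above all Ikaros values at 0 h. Among these 176, the Gm37502 member had the largest rise after the rRNA-gene neighbour n-R5s219. In the Ikaros line the Gm37502 member read 0.20, 1.72 and 2.73 at 0 h and 4.50, 4.55 and 4.77 at 24 h. In the control it read 3.35, 4.11 and 3.91 at 0 h and 3.17, 3.17 and 3.96 at 24 h. The Ikaros values at 24 h were above all its 0 h values, and the control ranges overlapped (change 3.41 ± 0.71, limma adjusted p = 0.0109; 0.0584 with trends removed). The Gm11962 member fell: 5.81, 4.54 and 4.98 in the Ikaros line at 0 h and 3.21, 3.44 and 3.98 at 24 h, against 4.17, 4.52 and 4.11 and then 4.63, 4.90 and 4.58 in the control (−2.00 ± 0.41, limma adjusted p = 0.0102; 0.0331 with trends removed). The line difference at the Stk11 member fell by 1.45 ± 0.32 (limma adjusted p = 0.0125), from Ikaros values of 6.62, 6.03 and 6.79 at 0 h to 5.81, 5.75 and 5.61 at 24 h.

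Change over time within a line was called in 177 members of the Ikaros line (2.04% against 2.29% of all DHS), and in 20 of the control line (0.231% against 0.148%). The Ikaros count was 28, 74, 97, 106 and 115 without Ikaros 0h replicate 4, Ikaros 0h replicate 5, Ikaros 12h replicate 4, Ikaros 12h replicate 6 and Ikaros 24h replicate 4. The control count was 82, 6, 85, 59, 45 and 12 without Control 0h replicate 4, Control 0h replicate 6, Control 2h replicate 5, Control 2h replicate 6, Control 6h replicate 4 and Control 6h replicate 5, and 11 with the replicate block. The library medians of the members averaged 3.73 ± 0.05 in the Ikaros line at 0 h and 3.97 ± 0.03 at 24 h, and 3.96 ± 0.08 and 3.80 ± 0.05 in the control (SD, n = 3).

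Over all members the median line difference was −0.24, 0.08, −0.02, 0.19, 0.09 and 0.17 from 0 to 24 h, against −0.06, 0.01, 0.00, 0.05, 0.03 and 0.06 over all DHS. The size depends on scaling, since quantile normalization gave 0.03 at 24 h. Removal of trends gave −0.01 at 24 h. That step fits width, by which the members were chosen, so a median near 0 largely follows from it and no sign is read there. Narrow DHS in a gene body had nearly the same medians as the members (−0.24 at 0 h, 0.16 at 24 h), and broad intergenic DHS lay nearer to 0 (−0.15 and 0.06).

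The difference at 24 h followed base composition and level among the members. From the lowest to the highest quartile by GC content (limits 44.6%, 48.9% and 53.2%) its median was 0.53, 0.20, 0.09 and −0.06, and by level (limits 3.42, 3.79 and 4.19) 0.51, 0.24, 0.08 and −0.10. At 0 h the GC quartiles had −0.27, −0.28, −0.27 and −0.15. Of the 47 members called higher at 24 h, 35 were in the lowest GC quartile, and of the 29 called lower, 27 were in the highest level quartile. By distance to the next DHS the medians at 24 h were 0.05, 0.11, 0.18 and 0.32. Members with the Ikaros core had 0.12 and those without it 0.19, and 26 of 3068 and 50 of 5598 were called. The Pearson correlation of the 24 h difference of a member with that of its next DHS was 0.373 within 1000 bp (n = 1379) and 0.200 beyond 10 kb (n = 3550), values that share the same libraries. The share of pairs with the same sign was 60.0% within 1000 bp and 63.3% beyond 10 kb.

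**Figure D5:**
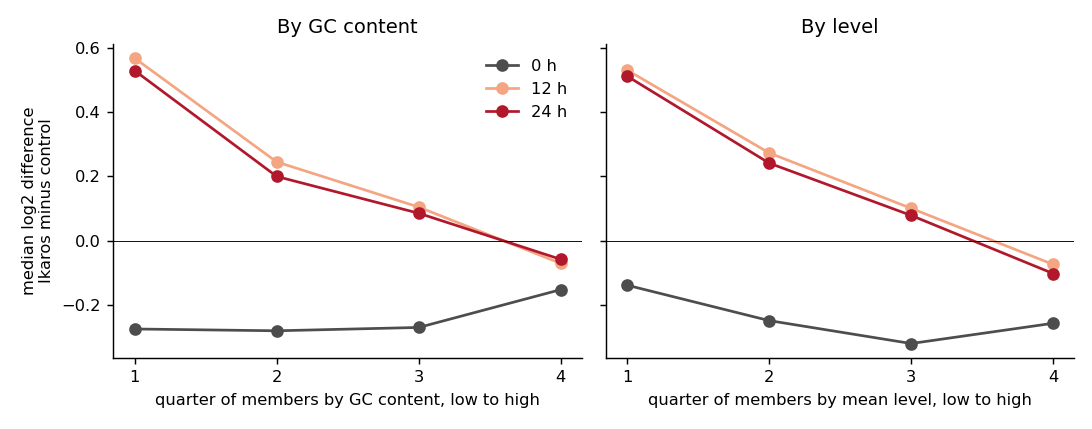
Median log2 difference Ikaros minus control (y axis) at 0, 12 and 24 h in quartiles of the members by GC content (left) and mean level (right), from low to high. At 24 h the medians fall from 0.53 to −0.06 with GC content and from 0.51 to −0.10 with level on the deposited scale, while at 0 h they all lie below 0.

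Members were also grouped by nearest genes of B-cell biology, on 10 lists, and their calls over the 6 times are read against 8.76% of all members and 14.8% of all DHS called at any of them. Of 18 members next to 11 of 27 genes for B-lineage factors, 1 of the 3 at Foxo1, shown above, was called, at 0 h. Of 14 next to genes of pre-B receptor signalling, 1 of the 5 at Blnk, the adaptor that links the receptor to its kinases, was called at 12 h, with 3.41, 3.82 and 3.23 in the Ikaros line against 1.22, 2.01 and 1.16 (2.03 ± 0.49, limma adjusted p = 0.0336; 0.374 with trends removed). At 24 h the Blnk values were 4.06, 3.55 and 3.55 against 1.30, 1.91 and 3.35, apart but not past the threshold (limma adjusted p = 0.111). Of 8 next to interleukin 7 receptor pathway genes, 1 of the 2 at Socs3, described above, was called, at 0 h. No member lay next to the 11 genes of recombination and end joining.

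Among 16 members at immediate early genes, which respond quickly to growth signals, 2 were called (limma), a share near those of all members and all DHS. The Junb member, 2351 bp upstream of a gene for an AP-1 subunit and one of the higher sites (level 6.00), read 5.52, 5.76 and 5.74 in the Ikaros line and 6.75, 6.63 and 6.59 in the control at 6 h (−0.98 ± 0.20, limma adjusted p = 0.0179), and 5.55, 5.50 and 5.35 against 6.43, 6.01 and 6.45 at 24 h (−0.83 ± 0.20, limma adjusted p = 0.0322). At both times the groups lay apart, and at 0 h (−0.09) they overlapped. Of the 3 members at Dusp2, a phosphatase gene, 1 was called, at 0 h (0.81 ± 0.28, limma adjusted p = 0.0495, and 0.06 with the replicate block). None of the 8 members at cell cycle and Myc genes, 6 at glycolysis genes, 7 at T-lineage and Notch genes, 4 at progenitor and myeloid genes or 9 at adhesion and migration genes was called at any of the 6 times. Their highest sites, at Mxd4, Txnip, Hes1, Csf1r and S1pr1, differed by −0.02, −0.82, −0.15, 1.25 and −0.34 at 24 h. At Txnip, whose protein restrains glucose uptake, the Ikaros values at 24 h were 4.78, 4.67 and 4.41 and the control values 5.36, 5.74 and 5.23, which lay apart without passing (limma adjusted p = 0.337).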

How the data were processed

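Reads were shortened and mapped (Bowtie2, mm10, unique placements) by the authors, who called narrow and broad HOMER peaks in each replicate, merged them to 52788 DHS, counted the reads in them, applied RPKM and TMM scaling and took out structured noise with ARSyN. What the authors deposited is the log2 of these values; no base is stated, and base 2 was settled from the values, since base e would make a library's reads over DHS exceed its total. Because ARSyN models the groups, group means borrow from each other. The sources do not say if starts count from 0 or from 1, so positions are uncertain by 1 bp.

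DHS were annotated with GENCODE vM21 basic, and RefSeq GRCm38.p6 gave sequences and 403 tRNA genes. Limma 3.58.1 (R 4.3.3; lmFit, contrasts, eBayes with trend) fitted 12 group means to 36 libraries, with two-sided tests and Benjamini-Hochberg adjustment over all DHS. In a simulated table of 52788 DHS, with 200 of them shifted by 2 log2 units in the 24 h comparison, the fit called 136 of the 200 and 7 others. These counts describe the simulated table only, and no error rate for the measured values is read from them. The measured values differ in replicate spread between the lines, and their group means borrow from each other. Members, gene lists and tests were chosen with earlier results of these data known. Members named are the largest called, non-overlapping differences of each sign (5 at 24 h, 2 at other times, 3 for the change), the 5 highest and 3 lowest levels, the member called most often, and members of 10 gene lists (196 genes) that were called or highest; the tRNA members were added later, and some members are not reported here. The replicate number is a batch in the labels and so pairs the samples; deviations of same-numbered libraries of the 2 lines correlated at −0.164 to 0.146 over 18 pairs.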

Additional observations from a re-analysis of the deposited data

Results flagged for a closer look

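The line difference at 24 h was tested against that at 0 h, and the 354 members past the threshold show different effects at the 2 times. Members named for this change had lines apart at 24 h and Ikaros values apart between 0 h and 24 h, in its direction. The 3 largest of 176 such rises were at the n-R5s219 (3.89), Gm37502 (3.41) and Samd9l (3.39) members. The 3 largest of 37 such falls were at the Gm7760 (−2.43), Gm22271 (−2.06) and Gm11962 (−2.00) members. With trends with level, GC and width removed only the call at Gm11962 was kept among these 6 (limma adjusted p = 0.0331; 0.0584 to 0.204 for the others). By the study's methods the 0 h cells were collected separately, though the labels give them the same batches as the later times. The part of this in these values was not tested.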

How the results depend on the processing

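Numbers of members past the threshold, in the order 0, 2, 6, 12, 18 and 24 h, depended on the scaling and on the spread model. Quantile normalization gave 373, 3, 37 and 18 at 0, 2, 12 and 18 h, 154 for the change from 0 h to 24 h and 0 for the control over time; median centring gave 37 at 2 h. Removing trends with level, GC and width gave 159, 11, 19, 14, 19 and 23, 21 for the change, and 64 and 8 over time in the Ikaros and control lines. Library weights gave 274, 15, 125, 277, 291 and 527, and 483 and 0 over time. Fitting only the groups of each comparison gave 0, 0, 4, 0, 7 and 170, 5 for the change, and 534 and 0 over time. The replicate block gave 13 at 2 h and 11 over time in the control line, and changed no other count by over 1.5 times; of 47 named comparisons 44 kept their call, and those at 1700049E22Rik and Fam49a at 2 h and Dusp2 at 0 h were lost. The share of calls that were higher at 24 h went from 47 of 76 to 7 of 23 with trends removed. Leaving out 1 library or 1 replicate number gave 183 to 786, 1 to 135, 0 to 79, 3 to 113, 1 to 53 and 1 to 35 calls at the 6 times, 41 to 513 for the change, and 0 to 248 and 6 to 123 over time in the Ikaros and control lines. The cause of these shifts was not tested. Leaving out means under 2, the fit without a trend, the limit of 150 bp and protein-coding genes alone kept every count within 1.5 times of the reported one. None of the 47 named comparisons changed sign under the alternatives run, 26 kept their call with trends removed, and 0 kept it under every alternative. The depth of each library is unknown beyond the minimum that the study states, and 3 libraries a group limit the precision.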
